A study of Homo sapiens with 96 samples.

Results

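Cetuximab was compared with its PBS vehicle in HaCaT-Mock cells. HaCaT is a human keratinocyte line that became immortal spontaneously, and HaCaT-Mock is the control line for the constructs of the study, which were put into HaCaT cells with a lentiviral vector and puromycin selection. The methods do not state which vector HaCaT-Mock carries. The comparison consisted of 6 of the 96 Affymetrix U133 Plus 2.0 arrays of the series: 3 arrays of cells given 100 nM cetuximab and 3 arrays of cells given PBS, all without siRNA. They were selected by their labels for line, treatment and siRNA, and no measured value was used. Both groups were grown in a medium with low serum, and treatment lasted about a day by the methods of the study. HaCaT-Mock made up 22 of the 89 arrays of HaCaT constructs. The other HaCaT-Mock arrays whose values are reported here held 100 nM gefitinib (3), 10 nM afatinib (3), siRNA against EGFR (siEGFR, 3), a scramble siRNA (3), and scramble siRNA with PBS (1) or with cetuximab (1). Arrays with scramble siRNA and gefitinib (1) or afatinib (1) entered the model fit over the construct arrays and the choice of probe sets. They are otherwise reported only as counts beside the array whose label and values disagreed. The same PBS and cetuximab treatments were also given to 3 other construct lines. Their constructs were wild-type EGFR (HaCaT-EGFR, 2 PBS and 3 cetuximab arrays), mutant HRAS (HaCaT-HRAS, 3 and 3) and mutant PIK3CA (HaCaT-PIK3CA, 3 and 3).

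EGFR is the receptor through which epidermal growth factor and its relatives keep keratinocytes growing and moving. Ligand binding activates its intracellular kinase, which signals through RAS and the MAP kinase ERK to a set of transcription factors and to inhibitors that act back on the pathway, and through PI3K and AKT, which hold the FOXO transcription factors out of the nucleus. Cetuximab is an antibody that binds the outer part of the receptor and keeps ligand away, while gefitinib and afatinib enter the cell and act on the kinase. In skin, blocking EGFR is known for pushing keratinocytes towards differentiation and for the inflammatory rash that patients on these drugs develop.

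All values are deposited log2 signals of 1 probe set per gene, and a change is the difference of cetuximab minus PBS on that scale, with its standard error (SE), from 1 limma fit over all 89 construct arrays with array batch as a term. A gene was called changed at a Benjamini-Hochberg adjusted p under 0.05 over 19775 genes. The PBS arrays lay in batch J (replicates 1 and 2) and batch E (replicate 3), and the cetuximab arrays in batches J, E and M, so batch M held no PBS array of HaCaT-Mock. Array medians lay between 5.09 and 5.13. Across genes the PBS arrays correlated at r of 0.9925 to 0.9975, the cetuximab arrays at 0.9907 to 0.9932, and arrays of different groups at 0.9845 to 0.9916. The difference between 3' and 5' probe sets of ACTB, a sign of RNA quality and labelling, was 1.20 to 1.43 in the 5 arrays of batches J and E and 0.27 in the cetuximab array of batch M. Whether replicates came from separate cultures is not stated in the labels, so a p-value here reflects array-to-array spread that may be only technical.

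The labels and values of 1 array disagreed, and this is set out before the results. The array labelled HaCaT-Mock with scramble siRNA and PBS (batch J) lay above all 3 PBS arrays for 133 of the 133 genes that cetuximab raised at least 2-fold, and below them for 66 of the 72 genes that it lowered at least 2-fold. Over all genes, 25.5% lay above and 34.6% below the 3 PBS arrays on that array. CCL2 read 9.47 there, KRT4 9.16 and FOSL1 6.31. The 3 arrays with scramble siRNA alone read 5.31 to 5.68 for CCL2, 5.78 to 5.89 for KRT4 and 8.83 to 9.69 for FOSL1. Across genes the array correlated at 0.997 with the single batch J cetuximab array and at 0.9909 with the mean of the batch J PBS arrays. Why it lies there was not tested. It is none of the 6 arrays compared. It stands in the limma fit as a group of its own and in the mean levels that choose the probe sets, and with it left out of both 2852 genes changed with cetuximab, the same number as with it. Its own values are otherwise used in the single scramble pair described near the end.

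The labelled cell type held up on the arrays. Among the keratinocyte markers, KRT5 read 10.88 to 10.89 in the PBS arrays and KRT14 12.03 to 12.45, and the other 3 markers measured, SFN, PERP and DSP, had mean levels of 13.29, 11.95 and 11.91 over the construct arrays. Markers of melanocytes (5 measured) and leukocytes (4) had mean levels of 3.17 to 5.95 and 3.86 to 5.27, all below the median of all genes of 6.10, and none of them changed. Of 6 fibroblast markers 1 had a mean level at or above that median, and of 6 endothelial markers 0 did. COL3A1, DCN and VWF, markers of fibroblasts and endothelium, rose by 0.58, 0.51 and 0.64 from mean levels below that median, with probe sets that disagree in sign. The other 4 fibroblast markers (COL1A1, COL1A2, LUM and PDGFRA) and 5 endothelial markers (PECAM1, CDH5, KDR, TIE1 and CLDN5) did not pass the test. None of the 3 calls held without PBS replicate 3 (adjusted p = 0.11, 0.20 and 0.055), and each was also lost without at least 1 cetuximab array, COL3A1 and DCN without cetuximab replicate 1 (adjusted p = 0.10 and 0.15) and VWF without replicate 2 (adjusted p = 0.052). What these 3 genes have to do with the other changes was not tested.

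Cetuximab changed 2852 of the 19775 genes, 14.4% of those tested, with 1399 higher (7.07%) and 1453 lower (7.35%). At least 2-fold changes were seen for 205 of them, 133 up and 72 down. Genes that ERK is known to switch on, led by EGR1, DUSP6 and ETV5, were among the largest falls. CCL2, a monocyte-attracting chemokine, the mucosal keratin KRT4, the lipid hydroxylase CYP4F3 and the interferon-induced TRIM22 rose most, counting genes with a mean level no lower than the median of all genes. A non-coding RNA with a mean level below that median, LINC00973, fell by 3.17, the largest fall of all. Without the batch M array, which has no PBS partner, 2287 genes passed, and the counts under other settings ran from 586 (batch J alone) to 5376 (array weights).

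The promoters of genes at the centre of these results are shown to let their sequence be read beside the values. They come from the RefSeq windows of GRCh38.p14, which run from 250 bases before to 50 bases after each annotated start, and they are printed 5′ to 3′ on the strand of the gene. EGR1 encodes an immediate early transcription factor that serum response factor and its ERK-activated partners switch on through CArG boxes. All 250 bases before its start (chr5:138465229-138465478, + strand) are given, with 2 CArG boxes in capitals.
EGR1: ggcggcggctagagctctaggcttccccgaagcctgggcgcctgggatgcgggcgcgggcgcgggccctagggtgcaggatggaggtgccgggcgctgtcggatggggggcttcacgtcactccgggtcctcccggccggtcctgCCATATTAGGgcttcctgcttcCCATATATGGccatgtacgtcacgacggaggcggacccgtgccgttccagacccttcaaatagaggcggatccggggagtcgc

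The next 5 stretches belong to interferon-stimulated genes and hold the core of the interferon-stimulated response element (ISRE), GAAA, any 2 bases, GAAA, on either strand, in capitals with 25 bases on each side. IFI6 is read from chr1:27672251-27672373 (- strand), IFIT3 from chr10:89327816-89327909 (+ strand), ISG15 from chr1:1013359-1013424 (+ strand), IFIT1 from chr10:89392482-89392554 (+ strand) and IFI27 from chr14:94110603-94110675 (+ strand).
IFI6: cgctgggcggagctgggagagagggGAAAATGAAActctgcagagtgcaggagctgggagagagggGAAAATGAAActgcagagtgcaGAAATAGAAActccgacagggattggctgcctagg
IFIT3: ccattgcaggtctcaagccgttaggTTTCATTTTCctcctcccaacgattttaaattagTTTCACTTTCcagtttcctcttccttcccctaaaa
ISG15: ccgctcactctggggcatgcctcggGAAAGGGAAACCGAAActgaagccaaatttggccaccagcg
IFIT1: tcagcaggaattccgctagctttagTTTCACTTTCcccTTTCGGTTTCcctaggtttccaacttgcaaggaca
IFI27: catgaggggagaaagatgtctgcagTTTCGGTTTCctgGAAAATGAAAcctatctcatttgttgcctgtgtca

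The same core stands in the promoter of TNFSF10, the death ligand TRAIL (chr3:172523583-172523642, - strand). TXNIP, an inhibitor of thioredoxin and of glucose uptake, has a FOXO site, GTAAACA (chr1:145996672-145996728, - strand), and IVL, the envelope protein involucrin, an AP-1 site, TGANTCA (chr1:152908398-152908454, + strand).
TNFSF10: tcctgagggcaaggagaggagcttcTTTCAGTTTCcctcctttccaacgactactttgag
TXNIP: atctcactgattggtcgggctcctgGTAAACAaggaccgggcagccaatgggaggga
IVL: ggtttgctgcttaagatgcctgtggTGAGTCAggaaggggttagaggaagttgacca

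Over whole lists, the ISRE core was found in 19 of the 27 interferon response genes that had a promoter window (70.4%), and in 3.98% of the 15384 array genes with a window. It stood in 14 of the 21 interferon genes with a window that rose. Among those with a window that did not pass, IFI44, IFIT5, BST2, HERC5 and ISG20 also held it and RIGI did not, so its presence did not set the genes that rose apart. The CArG box was in 1 of 10 ERK-induced transcription factors (EGR1) and in 0 of 13 MAPK feedback inhibitors, against 1.66% of array genes. The AP-1 site was in 9 of 19 cornified envelope genes (47.4%) and 3 of 8 wound genes, against 8.1%. The FOXO site was in 3 of 17 FOXO targets (17.6%; TXNIP, PIK3IP1 and FOXO4), against 3.76%. These counts describe letters within the windows only.

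EGFR mRNA did not pass the test. It read 10.96, 11.01 and 10.42 in PBS replicates 1 to 3 and 11.05, 10.39 and 10.48 in cetuximab replicates 1 to 3, a difference of 0.05 ± 0.0963 (SE, adjusted p = 0.82, limma), and the groups overlapped. The 9 probe sets of EGFR gave differences between -0.19 and 0.34. Among the other ERBB receptors, ERBB3, which dimerises with EGFR and ERBB2, rose by 0.45 ± 0.077 (adjusted p = 1.5e-05) and ERBB2 rose by 0.28 (adjusted p = 0.033), with probe sets of either gene that disagree in sign. The call of ERBB2 was lost without any 1 array but PBS replicate 1 (adjusted p = 0.063 to 0.18). ERBB4 was low and differed by 0.28 (adjusted p = 0.21).

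Of the 8 EGFR family ligands measured, 4 fell and none rose. HBEGF, a ligand shed from the cell surface that acts in wound closure, read 7.72, 7.92 and 7.31 with PBS and 6.11, 5.88 and 6.32 with cetuximab. All cetuximab arrays lay below all PBS arrays, and HBEGF fell by 1.56 on the log2 scale (SE 0.11, adjusted p = 2.7e-16), although its probe sets disagreed in sign. EREG (epiregulin) fell by 1.14 and NRG1 (neuregulin) by 0.83, with NRG1 probe sets that disagree in sign. TGFA (transforming growth factor alpha) fell by 0.37 (lost without any 1 of PBS replicates 2 and 3 and cetuximab replicates 1 and 2, adjusted p = 0.069 to 0.20). For these 3 ligands values of the groups overlapped across batches: EREG read 7.86, 7.97 and 6.02 with PBS and 6.73, 4.79 and 6.24 with cetuximab, while within batch J it was lower with cetuximab by a difference of -1.19 and within batch E by -1.22.

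Most of the genes that restrain ERK fell, while the transcription factors that ERK induces went both ways. Of 16 MAPK feedback inhibitors 11 fell and none rose, with a median difference of -0.73 against 0.01 over all genes, and of 17 ERK-induced transcription factors 8 fell and 3 rose, with a median of -0.31. EGR1 read 10.48, 10.32 and 8.83 with PBS and 6.99, 6.21 and 6.67 with cetuximab. The groups stood well apart although the batch E PBS array was lower than the others. EGR1 fell by 3.13 (SE 0.161, adjusted p = 2.4e-21), a signal 88.6% lower. DUSP6, the phosphatase that removes phosphate from ERK, read 10.18, 10.16 and 9.49 with PBS and 7.62, 6.27 and 7.53 with cetuximab, and fell by 2.70 (SE 0.213, adjusted p = 4.5e-14). The related phosphatases DUSP4, DUSP5 and DUSP7 fell by 1.78, 1.08 and 0.95, PHLDA1 by 1.27, and the Sprouty and Spred inhibitors of RAS signalling SPRY2, SPRY1, SPRED2, SPRED1 and SPRY4 by 0.54 to 0.94. ERRFI1, which binds and inhibits EGFR itself, fell by 0.73 (adjusted p = 0.014). The call of ERRFI1 was lost without any 1 of PBS replicates 1 and 2 and cetuximab replicate 2 (adjusted p = 0.071 to 0.27), and that of SPRY4 without cetuximab replicate 2 (adjusted p = 0.10).

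ETV5, an ETS factor downstream of ERK, read 8.30, 8.22 and 8.47 with PBS and 5.69, 5.37 and 5.95 with cetuximab. It fell by 2.64 (SE 0.230, adjusted p = 8.5e-13) with more than 2 log2 units between the lowest PBS and the highest cetuximab array, and its relative ETV4 fell by 0.99. FOSL1, an AP-1 subunit, read 8.43, 8.55 and 8.52 with PBS and 6.33, 6.32 and 6.80 with cetuximab, a fall by 2.15 (SE 0.240, adjusted p = 1.2e-09). EGR3, IER3, FOS and MYC fell by 2.02, 1.57, 1.08 and 0.79. The other AP-1 family members on the list did not go the same way. FOSL2 rose by 0.46, JUND by 0.65 and ATF3, a stress-induced factor, by 1.34 (adjusted p = 0.0023), while JUN, JUNB and FOSB differed by -0.14, 0.10 and -0.14 and did not pass the test.

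**Figure D1:**
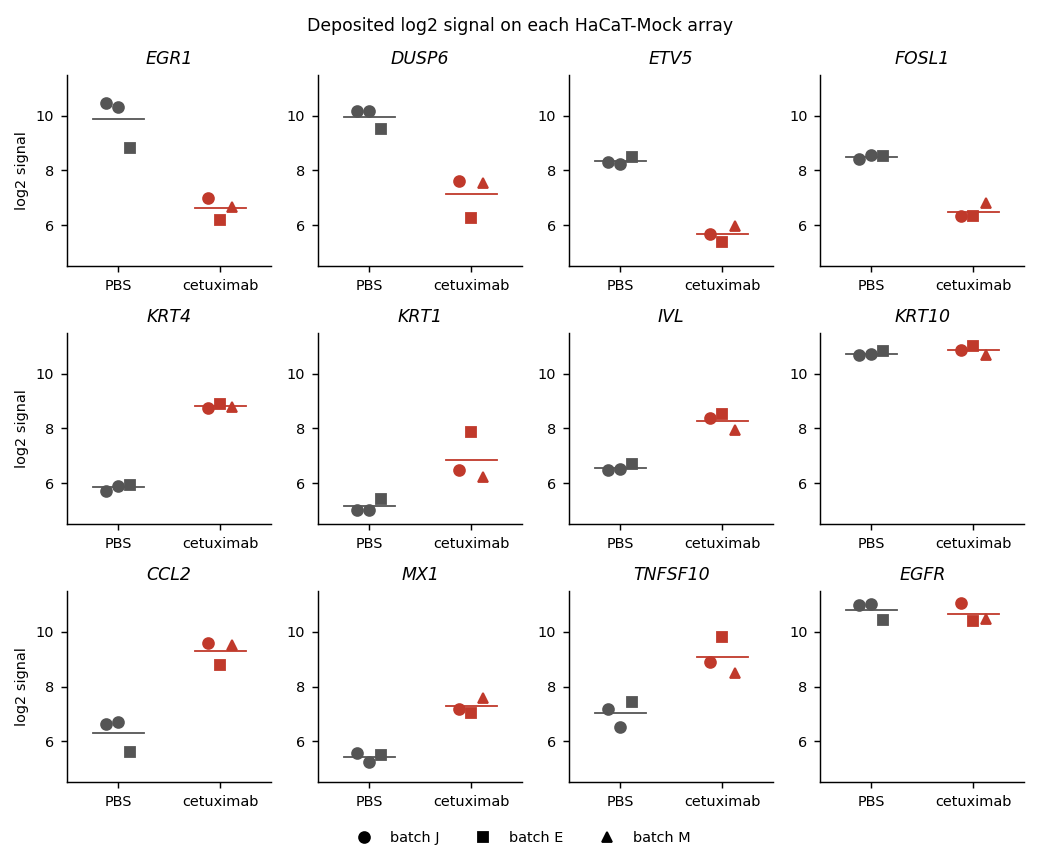
Log2 signal of 12 genes on the 3 PBS and 3 cetuximab arrays of HaCaT-Mock, with circles for batch J, squares for batch E, triangles for batch M and bars at group means. EGFR overlaps between the groups, while EGR1, DUSP6, ETV5 and FOSL1 lie lower and CCL2, KRT4, TNFSF10, IVL and MX1 higher on every cetuximab array than on any PBS array.

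Differentiation genes of the upper epidermal layers rose in part. Of 10 suprabasal and mucosal keratins 5 rose and none fell, with a median of 0.33. KRT4, a keratin of the mouth and oesophagus lining, read 5.73, 5.92 and 5.94 with PBS and 8.75, 8.88 and 8.79 with cetuximab. It rose by 2.85 ± 0.306 (adjusted p = 3.8e-10), a 7.2-fold rise. KRT13, its usual partner, read 8.67, 8.48 and 8.86 with PBS and 10.48, 10.96 and 10.78 with cetuximab and rose by 1.98. KRT1, the keratin that marks exit from the basal layer, read 5.03, 5.04 and 5.44 with PBS and 6.48, 7.87 and 6.24 with cetuximab and rose by 1.69 (adjusted p = 1.4e-06). KRT10, the partner of KRT1, read 10.69, 10.70 and 10.81 with PBS and 10.88, 11.00 and 10.70 with cetuximab. These ranges overlapped, and the difference of 0.16 did not pass the test (adjusted p = 0.058).

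Of 24 cornified envelope genes 5 rose, 2 fell and 17 did not pass. In batches J and E alone, and without any 1 of PBS replicates 1 and 2 and cetuximab replicates 2 and 3, 5 rose and none fell. Involucrin (IVL), an early envelope protein, read 6.47, 6.53 and 6.70 with PBS and 8.37, 8.52 and 7.93 with cetuximab and rose by 1.78 ± 0.178 (adjusted p = 6.7e-11). SCEL (sciellin) rose by 1.68, TGM1, the enzyme that crosslinks the envelope, by 1.13, the desmosomal cadherin DSC2 by 0.46 and PPL (periplakin) by 0.38. The small proline-rich proteins SPRR1A and SPRR1B fell by 0.38 and 0.50, and these are the 2 calls lost, at adjusted p = 0.061 to 0.30 without 1 of those arrays. Late genes of the granular layer did not pass the test: FLG (filaggrin) differed by -0.06, DSG1 by 0.05 and CDSN by -0.08. Of 17 differentiation transcription factors 3 rose (NOTCH1 by 0.64, GRHL3 by 0.66, or 0.48 with an adjusted p of 0.068 without PBS replicate 3, and the Notch ligand JAG2 by 0.33) and 2 fell (HEY1 by 0.99 and CEBPD by 0.25), while KLF4 and ZNF750 differed by 0.07 and -0.01. JAG2 was lost without PBS replicate 2 or cetuximab replicate 2 (adjusted p = 0.077 to 0.15), and CEBPD without any 1 of PBS replicates 2 and 3 and cetuximab replicates 1 and 2 (adjusted p = 0.055 to 0.23).

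Basal keratinocyte genes split by kind. The basal keratins rose, with KRT15, a marker of quiet basal and stem cells, at 10.33, 10.25 and 10.69 with PBS and 11.94, 12.48 and 11.94 with cetuximab. KRT15 rose by 1.65 (adjusted p = 3.9e-10), KRT5 by 1.05 and KRT14 by 0.52 (0.35, adjusted p = 0.21, without PBS replicate 3 and 0.47, adjusted p = 0.078, without cetuximab replicate 1). Of the genes that anchor basal cells to the basement membrane 5 fell: the integrins ITGA6, ITGA3 and ITGB4 by 0.51, 0.63 and 0.30, the laminin chain LAMB3 by 0.47 and the hemidesmosome linker DST by 0.41. ITGB1 differed by -0.13 (adjusted p = 0.16). The number of basal genes that fell was 3 without PBS replicate 1 or cetuximab replicate 1, 3 in batches J and E, and 1 with no batch term. ITGB4 was lost without either of those arrays (adjusted p = 0.052 to 0.10), and DST without any 1 of 5 of the 6 arrays, all but PBS replicate 2 (adjusted p = 0.061 to 0.11). On the cetuximab array of batch M, where the ACTB 3' to 5' difference was also lowest, KRT5 read 12.75 and KRT14 13.42, the highest of the 6 arrays, and what that array adds to these 2 genes was not tested beyond the within-batch values of 1.05 and 1.24 for KRT5 and 0.47 and 0.77 for KRT14 in batches J and E.

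Genes of cell junctions moved upwards, with 8 of 15 higher and none lower and a median of 0.39. In batches J and E alone 4 of them passed. CLDN1, a tight junction claudin, rose by 0.85, the desmosome proteins PKP1 and DSG3 by 0.79 and 0.78, OCLN (occludin) by 0.51, and CDH3 (P-cadherin) by 0.39. CDH1 (E-cadherin) differed by 0.59 but did not pass the test (adjusted p = 0.086). VIM, the mesenchymal intermediate filament vimentin, read 7.41, 7.39 and 7.18 with PBS and 6.40, 6.40 and 6.32 with cetuximab and fell by 0.93 (adjusted p = 1.4e-08). The other probe set of VIM differed by -0.0086 only. KRT18, a keratin of simple epithelia, fell by 0.86. Of 9 mesenchymal genes VIM alone fell (2 genes fell without PBS replicate 3) and SPARC alone rose (0.62), and SNAI2, FN1 and CDH2 did not pass.

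Wound and migration genes went both ways, with 4 of 13 higher and 2 lower (1 higher without cetuximab replicate 1 or PBS replicate 3 and 2 higher without cetuximab replicate 2). NT5E, the surface enzyme CD73 that makes adenosine, read 8.83, 9.02 and 8.69 with PBS and 5.93, 6.35 and 5.48 with cetuximab, and fell by 2.72 (SE 0.266, adjusted p = 3.3e-11). MMP9, a gelatinase, read 8.89, 9.14 and 7.51 with PBS and 6.84, 6.35 and 6.89 with cetuximab and fell by 1.84. The collagenase MMP13 read 4.18, 4.19 and 4.93 with PBS and 5.96, 7.18 and 5.05 with cetuximab and rose by 1.70 (adjusted p = 1.9e-08), although its batch E PBS and batch M cetuximab arrays lay close together. HAS3, which makes hyaluronan, and GPAT3, an enzyme of triglyceride synthesis, fell by 1.75 and 2.08, and RGCC, a cell cycle regulator, by 2.19. HAS3 and RGCC had probe sets that disagree in sign.

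Most interferon response genes rose. Of 34 measured, 26 rose and none fell, and the median of the list was 0.82. The cetuximab arrays lay clear of the PBS arrays for 26 of the 34, and for 23.2% of all genes in either direction. The count of genes that rose was 23 to 26 in fits without any 1 of the 6 arrays or without batch M. MX1, an antiviral GTPase, read 5.59, 5.24 and 5.50 with PBS and 7.19, 7.05 and 7.60 with cetuximab and rose by 1.83 ± 0.193 (adjusted p = 2.2e-10). TRIM22 read 6.47, 6.29 and 6.37 with PBS and 8.76, 8.29 and 8.63 with cetuximab and rose by 2.21. The rises included IRF9, the DNA-binding subunit of the interferon-activated STAT complex (1.49), IRF1 (1.11), IFIT3 (1.54), OAS1 (1.33), PARP9 (1.14) and ISG15 (0.59). RIGI, HERC5 and ISG20 differed by 0.03, -0.06 and -0.03 and did not pass.

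Of 11 genes of the MHC class I pathway, through which cells show peptides to T cells, 9 rose and none fell, with a median of 0.46. The immunoproteasome subunits PSMB9 and PSMB8 rose by 1.10 and 0.64, the peptide loading factor TAPBP by 0.74 and the transporter TAP1 by 0.43. HLA-B and HLA-C each rose by 0.51, with signal that may be shared among class I genes of near-identical sequence. B2M, the light chain, differed by 0.20 and did not pass (adjusted p = 0.18).

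Of 16 chemokines 6 rose and none fell. CCL2 read 6.62, 6.71 and 5.60 with PBS and 9.60, 8.79 and 9.50 with cetuximab. It rose by 3.07 ± 0.443 (adjusted p = 5.7e-07), an 8.4-fold rise, with at least 2 log2 units between the groups. CCL5 rose by 1.19, CXCL16 by 0.60, and the interferon-induced T cell attractants CXCL9, CXCL11 and CXCL10 by 0.64, 0.60 and 0.62 from levels below the median of all genes. CXCL10 was lost without any 1 of PBS replicates 2 and 3 and cetuximab replicate 3 (adjusted p = 0.053 to 0.22). Neutrophil attractants did not pass: CXCL8 differed by -0.37 (adjusted p = 0.60), CXCL1 by 0.12 and CXCL5 by -0.01.

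The interleukin 1 system moved the other way. IL1B read 9.72, 9.76 and 9.06 with PBS and 8.38, 7.56 and 8.44 with cetuximab and fell by 1.42 (SE 0.12, adjusted p = 1.6e-13). IL1A fell by 1.37, with probe sets that disagree in sign, and IL1R2, the decoy receptor for interleukin 1, fell by 2.46. The receptor antagonist IL1RN differed by 0.27 and did not pass (adjusted p = 0.23). Over the 21 interleukins and alarmins 4 fell (the fourth was the elastase inhibitor PI3, by 1.03) and 2 rose, the iron-binding LCN2 by 1.07 and the defensin DEFB1 by 0.55 (lost without any 1 of PBS replicates 1 and 3 and cetuximab replicates 1 and 2, adjusted p = 0.066 to 0.15). IL6 and IL18 differed by 0.03 and -0.05.

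**Figure D2:**
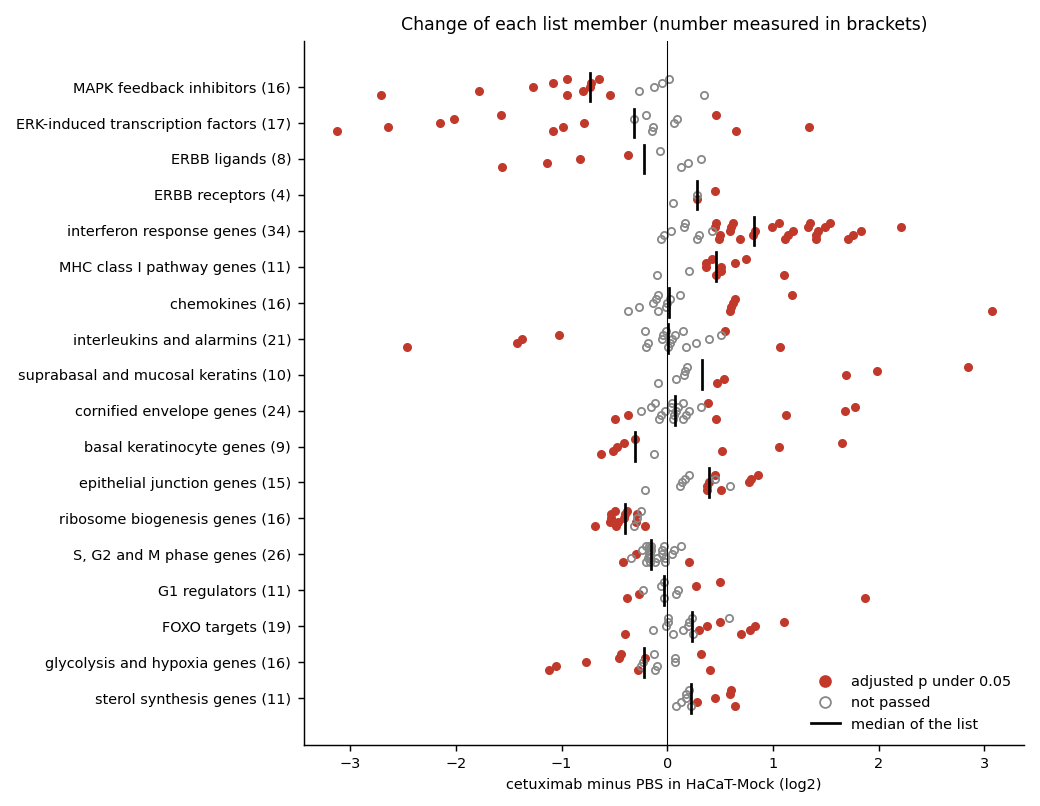
Log2 change with cetuximab of every measured member of 18 gene lists in HaCaT-Mock, with filled red points at an adjusted p under 0.05, open points for genes that did not pass and a black bar at each median. The interferon list has 26 of 34 genes passed, all above 0, and the MAPK feedback list 11 of 16, all below 0.

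TNFSF10, a ligand that triggers cell death through its receptors, read 7.17, 6.51 and 7.45 with PBS and 8.88, 9.83 and 8.48 with cetuximab and rose by 2.13 ± 0.216 (adjusted p = 8.9e-11). Its receptors TNFRSF10B and TNFRSF10A fell by 0.53 and 0.69, though the probe sets of TNFRSF10B disagree in sign. BCL2L11, the death-promoting protein BIM that ERK normally keeps low, rose by 0.49 with overlapping groups and probe sets of both signs. The other 11 of the 15 death ligands, receptors and BCL2 family members did not pass, among them MCL1 (0.05) and BCL2L1 (-0.09).

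Few cell cycle genes passed the test. Of 26 genes of S, G2 and M phase 2 fell (AURKA, and BUB1, whose probe sets disagree in sign) and 1 rose (TK1). This was a share near the 14.4% of all genes that changed, and the median was -0.16. With array weights, whose estimate did not converge, 12 fell. AURKA, a mitotic kinase, read 11.01, 10.92 and 11.29 with PBS and 10.42, 11.11 and 10.07 with cetuximab and fell by 0.42 (adjusted p = 0.011) with overlapping groups. The call of AURKA was lost without any 1 of PBS replicate 1 and cetuximab replicates 1 and 3 (adjusted p = 0.061 to 0.076), that of BUB1 without any 1 of PBS replicates 1 and 2 and cetuximab replicates 1 and 2 (adjusted p = 0.10 to 0.18) and that of TK1 without any 1 of PBS replicates 2 and 3 and cetuximab replicate 2 (adjusted p = 0.059 to 0.20). MKI67, TOP2A, PCNA and CCNB1 differed by -0.18, 0.06, -0.02 and -0.15 and did not pass. Among 11 G1 regulators, CDKN2B, an inhibitor of CDK4 and CDK6, read 7.38, 7.03 and 7.06 with PBS and 9.19, 8.51 and 8.96 with cetuximab and rose by 1.88 (adjusted p = 1.1e-07). CDKN2A and CDKN1A rose by 0.50 and 0.27, the D cyclins CCND2 and CCND3 fell by 0.27 and 0.38, and CCND1 differed by -0.06. Probe sets of CCND2 disagree in sign. Without PBS replicate 3 neither cyclin passed (-0.14, adjusted p = 0.37 for CCND2 and -0.33, adjusted p = 0.15 for CCND3) and nor did CDKN1A (0.21, adjusted p = 0.27), and in batches J and E no G1 regulator fell. CCND2 was also lost without cetuximab replicate 2 (adjusted p = 0.094), CCND3 without any 1 of the other arrays but cetuximab replicate 2 (adjusted p = 0.061 to 0.15), and CDKN1A without PBS replicate 1 or cetuximab replicates 1 or 2 (adjusted p = 0.11 to 0.18).

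Genes of ribosome production fell together but by little: 13 of 16 fell and none rose, with a median of -0.40. NOP16, a nucleolar protein, fell by 0.68, though its probe sets disagree in sign, NOLC1 fell by 0.49, the RNA polymerase subunits POLR1B and POLR1C by 0.47 and 0.40, and NCL (nucleolin) by 0.28. Of 16 glycolysis and hypoxia genes 7 fell and 2 rose. HK2, which commits glucose to the cell, read 9.29, 9.28 and 9.62 with PBS and 8.25, 8.32 and 7.96 with cetuximab and fell by 1.12 (adjusted p = 3.4e-10), the glucose transporter SLC2A1 fell by 0.46 and VEGFA, the vascular growth factor, by 0.77.

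Lipid genes rose modestly. Of 11 sterol synthesis genes 5 rose and none fell (LSS and HMGCS1 by 0.60 each, INSIG1 by 0.64), and of 7 fatty acid synthesis genes 3 rose and none fell (SREBF1 by 0.59, SCD by 0.43, ACLY by 0.20, the last lost without PBS replicate 3 or cetuximab replicate 3 at adjusted p = 0.10 and 0.085). CYP4F3, which inactivates leukotriene B4, read 4.88, 4.42 and 5.05 with PBS and 7.35, 8.01 and 7.17 with cetuximab and rose by 2.72 ± 0.29 (adjusted p = 2.3e-10). HPGD, which inactivates prostaglandins, rose by 1.51, while PTGS1, which makes them, and PLA2G4A, which frees arachidonic acid, fell by 0.88 and 0.76. PTGS2 was low and differed by -0.10.

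Of 19 genes that FOXO factors are known to induce, 7 rose and 1 fell, with a median of 0.23. TXNIP read 8.48, 8.31 and 9.35 with PBS and 9.76, 10.15 and 9.62 with cetuximab and rose by 1.10 (adjusted p = 1.7e-05), with the batch E PBS array just below the batch M cetuximab array. FBXO32, PIK3IP1, CCNG2, CDKN1B, FOXO3 and BCL6 rose by 0.30 to 0.83, and IRS2 fell by 0.40. IRS2 was lost without any 1 of PBS replicates 1 and 2 and cetuximab replicate 2 (adjusted p = 0.14 to 0.59) and BCL6 without PBS replicate 2 or cetuximab replicate 1 (adjusted p = 0.069 to 0.087). SESN1, KLHL24 and FOXO4 differed by -0.01, 0.01 and 0.01.

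TFAP2A, the transcription factor AP-2alpha that the study was concerned with, read 9.70, 9.65 and 9.67 with PBS and 9.97, 9.88 and 9.86 with cetuximab and rose by 0.28 ± 0.06 (adjusted p = 0.00027), though its probe sets disagree in sign. Of the AP-2 factors and targets that the study names as rising, 3 of 7 rose (TFAP2A, ERBB2 and IGF1R), and of those it names as falling 3 of 4 fell (VEGFA, TGFBR3 and TGFA). Without PBS replicate 3 the calls of ERBB2, IGF1R, TGFBR3 and TGFA were lost (adjusted p = 0.063, 0.065, 0.064 and 0.069), which left 1 gene in either direction, and only 1 of the 7 also rose without any 1 of PBS replicate 2 and cetuximab replicates 1 and 3. The study chose these genes on these samples, so the counts are not independent evidence of a direction. Of 15 other receptor tyrosine kinases, FGFR3 (0.52), FGFR2 (0.34) and IGF1R (0.24) rose, and AXL, MST1R and EPHA2 fell by 0.66, 0.48 and 0.33, with AXL probe sets that disagree in sign. MET differed by 0.04. FGFR2 was lost without any 1 of PBS replicate 3 and cetuximab replicates 2 and 3 (adjusted p = 0.052 to 0.15), IGF1R without any 1 of 5 arrays, all but cetuximab replicate 2 (adjusted p = 0.056 to 0.20), and EPHA2 without any 1 of PBS replicates 1 and 2 and cetuximab replicate 2 (adjusted p = 0.061 to 0.16). Of 8 housekeeping genes only TBP passed, at -0.21, and it failed without any 1 array but cetuximab replicate 1 (adjusted p = 0.074 to 0.29).

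The same contrast with the kinase inhibitors shares the PBS arrays, so their values are set side by side. Against PBS, 4768 genes changed with gefitinib (24.1%; 12.4% up and 11.7% down) and 5641 with afatinib (28.5%; 14.8% up and 13.8% down). DUSP6 differed from PBS by -2.70 with cetuximab, -3.24 with gefitinib and -2.63 with afatinib, ETV5 by -2.64, -3.25 and -3.23, and EGR1 by -3.13, -2.82 and -1.87. CCL2 differed by 3.07, 3.15 and 3.12, and MX1 by 1.83, 1.79 and 1.69. Among the 26 genes of S, G2 and M phase, 2 fell and 1 rose with cetuximab, 16 fell and 1 rose with gefitinib and 19 fell and none rose with afatinib, with medians of -0.16, -0.28 and -0.38. Of the 19 FOXO targets 7, 10 and 13 rose, with medians of 0.23, 0.52 and 0.64, and of the 16 ribosome biogenesis genes 13, 16 and 16 fell.

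**Figure D3:**
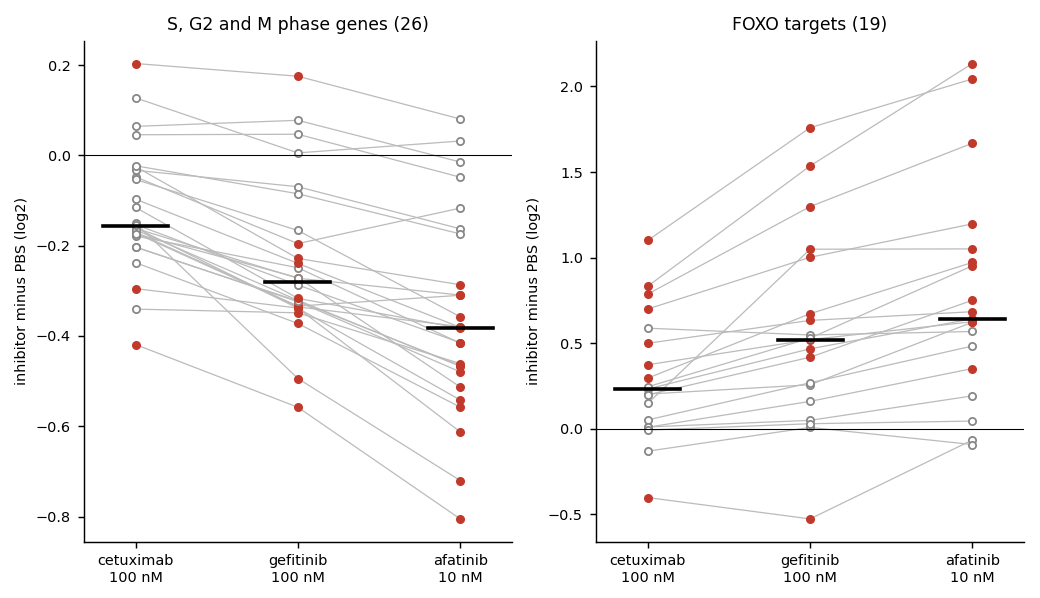
Log2 change against PBS with cetuximab (100 nM), gefitinib (100 nM) and afatinib (10 nM) in HaCaT-Mock for 26 S, G2 and M phase genes and 19 FOXO targets, with a thin line per gene and a black bar at the median. The medians run from -0.16 to -0.38 for the cell cycle genes and from 0.23 to 0.64 for the FOXO targets. All 3 contrasts use the same PBS arrays.

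Cetuximab and gefitinib were given at the same concentration and were compared directly, without the PBS arrays. How far each blocked EGFR at that concentration was not measured on these arrays, so compound and strength of block cannot be told apart. Of 19775 genes 62 differed (0.314%), 11 higher (0.0556%) and 51 lower (0.258%) with cetuximab. The stromelysin MMP10 was lower with cetuximab by a difference of -1.22 (adjusted p = 0.024), TNFSF10 by -0.88 (adjusted p = 0.046) and the FOXO target and ubiquitin ligase FBXO32 by -0.70. NRG1 was higher by 0.55, the junction protein CLDN4 by 0.39, KRT18 by 0.39 and the replication factor CDC6 by 0.34. Of the cell cycle list 1 gene was higher and of the FOXO list 3 were lower with cetuximab. MMP10 read 5.77, 7.47 and 4.64 on the cetuximab arrays, so its spread between batches was large. The count of 62 fell to 9, 40 and 8 without cetuximab replicates 1, 2 and 3, and to 0 with only the groups compared in the fit.

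Many genes central to the response did not pass this test between cetuximab and gefitinib, which does not show that their levels were equal. Intervals, not adjusted for the number of genes, limit by how much they could differ. The 95% interval of the difference was -0.96 to 0.81 for CCL2, -0.34 to 0.43 for MX1 and 0.11 to 0.96 for DUSP6, which did not pass after adjustment (adjusted p = 0.46). IVL was lower with cetuximab by an estimated -0.65 (-1.01 to -0.30, adjusted p = 0.10) and KRT4 by -0.90 (-1.51 to -0.29, adjusted p = 0.29). The interval also excluded equal levels for ETV5 (0.15 to 1.07), FOSL1 (0.03 to 0.99), KRT1 (-1.19 to -0.17), TXNIP (-1.04 to -0.28) and EGFR (-0.43 to -0.04). None of these passed after adjustment in limma (adjusted p = 0.14 to 0.63). For EGR1, KRT10, AURKA and TFAP2A the interval included equal levels.

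Afatinib was given at a lower concentration, so compound and dose cannot be told apart in its values. Between cetuximab and afatinib 1372 genes differed (6.94%), 521 higher (2.63%) and 851 lower (4.3%) with cetuximab. EGR1 lay lower with cetuximab, by -1.25 (adjusted p = 2.1e-07), and so did MMP10 (-2.09), RGCC (-1.53), TNFSF10 (-1.52, adjusted p = 1.7e-06), FBXO32 (-1.30) and EGFR (-0.49, adjusted p = 0.00048). The fatty acid binding protein FABP5 and the cyclin CCNA1 lay higher, by 0.69 and 0.67. Of the cell cycle genes 7 of 26 lay higher, of the ribosome biogenesis genes 8 of 16 lay higher and of the FOXO targets 11 of 19 lay lower with cetuximab. DUSP6 and CCL2 differed by -0.07 (-0.50 to 0.35) and -0.05 (-0.93 to 0.83).

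Loss of EGFR by siRNA was measured on arrays that the cetuximab comparison does not use. Against scramble siRNA, EGFR mRNA fell by 2.11, which checks the label, and 2138 genes changed (10.8%), 5.45% up and 5.36% down. SCEL rose by 2.03, CYP4F3 by 1.73, CCL2 by 1.64 and TNFSF10 by 1.14, and DUSP6, FOSL1 and EGR1 fell by 1.16, 1.33 and 0.84. KRT4 and MX1 differed by 0.36 and 0.54 (adjusted p = 0.06 for MX1) and did not pass. Of the interferon response genes 12 of 34 rose, and of the MAPK feedback inhibitors 10 of 16 fell and 1 rose. Genes that rose in both numbered 354, which is 25.3% of those raised by cetuximab and 32.8% of those raised by siEGFR, and 30 genes raised by cetuximab fell with siEGFR. Genes that fell in both numbered 450, or 31% and 42.5% of the respective lists, with 46 in the opposite direction. The responses to cetuximab and siEGFR differed from each other for 1044 genes (5.28%).

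The pair of arrays with scramble siRNA, 1 with cetuximab and 1 labelled PBS, gives values with no test. EGR1 read 6.38 with cetuximab and 8.55 on the array labelled PBS, a difference of -2.17, and DUSP6 6.42 and 8.13 (-1.71). TNFSF10 was higher with cetuximab by 1.04. ETV5 read 5.39 and 6.32, FOSL1 5.91 and 6.31, KRT1 7.53 and 6.83, IVL 8.52 and 8.11 and MX1 7.09 and 6.69, so these 5 genes also differed in the direction seen without siRNA. CCL2 (8.56 and 9.47) and KRT4 (8.77 and 9.16) lay lower with cetuximab instead, and the interferon response genes had a median difference of -0.15. Of the 133 genes raised at least 2-fold by cetuximab without siRNA, 43 were higher with cetuximab in this pair, where 55.5% of all genes were, and of the 72 lowered genes 52 were lower, where 44.5% of all genes were. Against the PBS arrays of batch J without siRNA, the array with scramble siRNA and cetuximab showed medians of 1.28 and -1.60 for the raised and lowered genes, and the array labelled PBS 1.45 and -1.24.

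**Figure D4:**
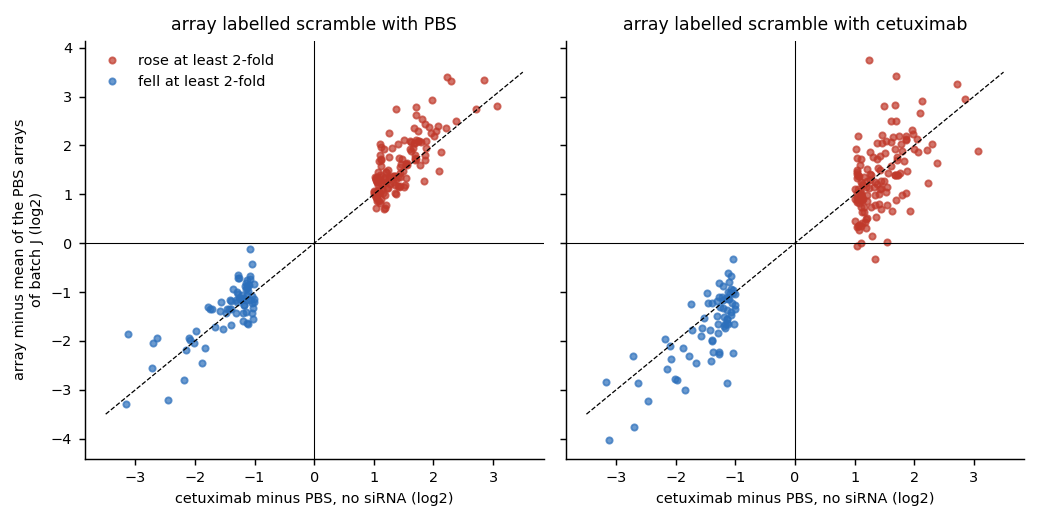
For the 205 genes changed at least 2-fold by cetuximab in HaCaT-Mock, the log2 difference of the array labelled scramble siRNA with PBS (left) and of the array with scramble siRNA and cetuximab (right) from the mean of the batch J PBS arrays, against the log2 change with cetuximab without siRNA. The dashed line marks equal values, and both axes use the PBS arrays. On the left panel the 133 raised genes have a median of 1.45 and the 72 lowered genes of -1.24.

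The cetuximab response of HaCaT-Mock was then compared with that of the construct lines by the difference of the 2 responses. In HaCaT-HRAS only 63 genes changed with cetuximab (0.319%), and 287 genes responded differently than in HaCaT-Mock (1.45%; 0.693% higher and 0.759% lower). DUSP6 read 10.99 to 11.13 with PBS and 10.45 to 10.65 with cetuximab in HaCaT-HRAS, a response 2.17 less negative than in HaCaT-Mock (adjusted p = 3.8e-06). The responses of EGR1, IVL, TNFSF10 and MX1 differed by 1.73, -1.78, -1.94 and -1.39 (adjusted p = 2.1e-06, 6.3e-06, 3.8e-05 and 0.0014). The differentiation and eicosanoid genes KRT4, KRT13 and CYP4F3 differed by -2.73, -1.81 and -2.84, and ETV5 and NT5E by 2.61 and 2.20. EGR1 still fell by 1.40 in HaCaT-HRAS (adjusted p = 1.5e-07). Of the interferon response genes 11 of 34 responded less than in HaCaT-Mock. Of the MAPK feedback inhibitors 4 of 16 (DUSP4, DUSP5, DUSP6 and PHLDA1) had a response above that of HaCaT-Mock, where each fell. They did not pass as falls in HaCaT-HRAS. CCL2 was not among these genes, with a difference of -0.42 (adjusted p = 0.93).

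**Figure D5:**
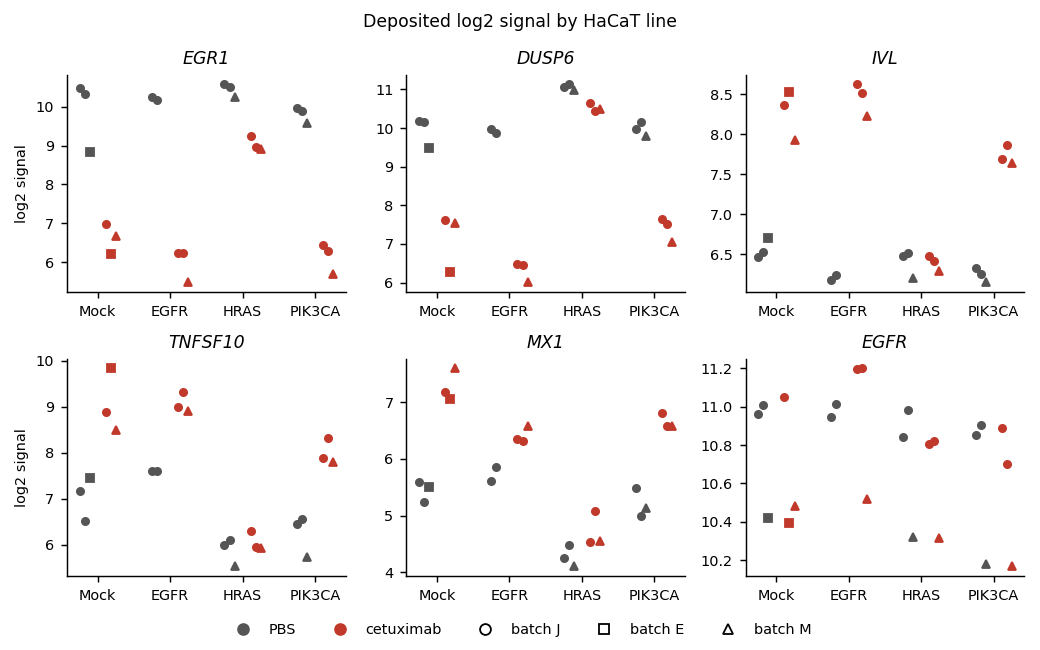
Log2 signal of EGFR, DUSP6, EGR1, IVL, TNFSF10 and MX1 on each array with PBS (grey) or cetuximab (red) in HaCaT-Mock and the 3 construct lines. IVL lies between 6.21 and 6.52 with either treatment in HaCaT-HRAS and between 7.64 and 8.62 with cetuximab in the other lines.

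In HaCaT-PIK3CA 3495 genes changed (17.7%), and limma found 0 genes whose response differed from that of HaCaT-Mock, with 1169 genes at an unadjusted p under 0.05 and a smallest adjusted p of 0.13. DUSP6 fell by 2.58 there, IVL rose by 1.48, TNFSF10 by 1.75 and MX1 by 1.45. EGFR mRNA read 10.95 and 11.02 on the PBS arrays of HaCaT-EGFR and 10.96 and 11.01 on the batch J PBS arrays of HaCaT-Mock. The probe set used thus showed no overexpression, which the paper reports by RT-PCR, and the reason was not tested. In HaCaT-EGFR 2734 genes changed (13.8%) and 5 responded differently than in HaCaT-Mock (0.0253%). These 5 are named after their values were seen: CXCL9, CXCL10 and CXCL11 differed by -2.55, -2.31 and -1.58, LGALSL by 0.73 and ELF4 by 0.55. Probe sets of LGALSL disagree in sign for the cetuximab change in HaCaT-Mock. CXCL9 read 6.58 and 6.32 on the 2 PBS arrays of HaCaT-EGFR and 4.56, 4.20 and 4.91 with cetuximab, while in HaCaT-Mock it read 4.16, 4.67 and 4.61 with PBS and 5.10, 5.19 and 5.11 with cetuximab. The chemokine thus lay higher with PBS than with cetuximab in HaCaT-EGFR and lower with PBS than with cetuximab in HaCaT-Mock.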

How the data were processed

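The authors deposited log2 signals for each probe set, which ran from 2.65 to 14.5. The authors' methods describe frozen robust multi-array normalization and a surrogate-variable batch correction, and the processing notes name affy, but the sources used here leave unsaid which of these were applied to the file. A step that removes batch differences can shrink or shift differences between arrays of different batches. The labels name 2 labelling kits without saying which array had which. No reads were counted, so the number of arrays limits the precision.

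Probe sets with 1 gene symbol in the platform annotation (41097 of 54675, while 1801 had several and 11777 were not listed) were reduced to the probe set with the highest mean for each of 19775 genes. The linear model of limma 3.58.1 (R 4.3.3) used all 89 construct arrays with group and batch (J, E, M) as terms, 47 residual degrees of freedom and empirical Bayes moderation. Tests were two-sided, with Benjamini-Hochberg adjustment over all genes of a comparison, and the procedure was tested on simulated data. The named genes were the 10 largest rises and falls among changed genes at or above the median level (6.10) whose groups did not overlap, the 3 members of each of 33 lists with the lowest adjusted p, a fixed set of 15 genes and, for differences between treatments or lines, the 5 largest each way. Other list members were named after their values were seen. The comparison, the lists and these genes were chosen with earlier results of these data known. The 95% intervals use the moderated SE. Promoter windows were those of RefSeq on GRCh38.p14. Alternatives covered the arrays and batches in the fit, array weights, the variance model, normalization, the probe set rule, low values, a replicate block and leaving out each array.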

Additional observations from a re-analysis of the deposited data

Results flagged for a closer look

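The cetuximab response of 5 genes differed between HaCaT-HRAS and HaCaT-Mock by the test of the difference in limma. The responses of DUSP6 and EGR1 were 2.17 ± 0.3 and 1.73 ± 0.227 (SE) log2 units less negative in HaCaT-HRAS than in HaCaT-Mock (adjusted p = 3.8e-06 and 2.1e-06). In HaCaT-HRAS EGR1 fell by 1.40 and DUSP6 differed by -0.53 (adjusted p = 0.50). IVL, TNFSF10 and MX1 responded by -1.78, -1.94 and -1.39 relative to HaCaT-Mock (adjusted p = 6.3e-06, 3.8e-05 and 0.0014). None of these 3 passed as a rise in HaCaT-HRAS, where they differed by -8e-04, 0.19 and 0.44 (adjusted p = 1, 1 and 0.61).

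An array outside the comparison carried, under a PBS label, the pattern seen with the EGFR inhibitors. On the array labelled HaCaT-Mock with scramble siRNA and PBS, 133 of 133 genes that rose at least 2-fold with cetuximab lay above all 3 PBS arrays, and 66 of 72 that fell lay below them. Of all genes 25.5% lay above and 34.6% below on that array. On the 3 arrays with scramble siRNA alone 9, 3 and 8 of the 133 lay above, and 18.8%, 24.2% and 28.5% of all genes did. With scramble siRNA and gefitinib or afatinib, 129 and 128 of the 133 lay above (30.3% and 32.9% of all genes). On those arrays 72 and 71 of the 72 lay below (34% and 31.8% of all genes), so these counts do not single out cetuximab. The cause was not tested.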

How the results depend on the processing

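The count of genes changed by cetuximab, 2852, was 1715 with only the groups compared in the fit, 1315 with no batch term, 586 in batch J alone, 1734 in batches J and E, 5376 with array weights (whose estimate did not converge) and 1975 to 2378 without any 1 array. No gene shared with the main count turned direction. The 205 genes changed at least 2-fold became 134 when genes below the median level were left out, and 196 to 226 without 1 array. Genes differing between cetuximab and gefitinib, 62, were 0 (only the groups compared), 212 (only HaCaT-Mock arrays), 3 (no batch term), 0 (batch J), 2 (batches J and E), 1141 (array weights) and 8 to 67 (leaving out 1 array). Those between cetuximab and afatinib, 1372, were 643, 275 (no batch term), 24 (J), 202 (J and E), 3739 (weights) and 778 to 1374 (leaving out 1 array). The share higher with cetuximab, 38%, was 21% with only the groups compared, 22.9% with no batch term, 15.3% in J and E and 45.6% with weights, and for gefitinib 17.7% became 36.8% with weights. The 5 genes that responded differently in HaCaT-EGFR were 3 with no batch term, 2 in J, 2 in J and E, 229 with weights, 3 with the filter on low values and 3 to 5 without 1 array. The 287 in HaCaT-HRAS were 806 with only the groups compared, 93, 26, 76 and 1802 under no batch term, J, J and E and weights, and 194 to 259 without 1 array. The 0 in HaCaT-PIK3CA became 11 with weights and 0 to 6 without 1 array (6 without cetuximab replicate 3 and 1 without PBS replicate 2). The 2138 genes changed by siEGFR were 1339, 689, 1118, 1106 and 3613 under only the groups compared, no batch term, J, J and E and weights, and 2102 to 2143 without 1 array. The difference in EGFR stayed below the threshold in every fit and was 0.02 to 0.10 without 1 array, but -0.15 with no batch term, -0.26 with the replicate block and -0.03 within batch E. Leaving the array labelled scramble siRNA with PBS out of the fit of 89 arrays, an alternative chosen after seeing the data, changed the probe set of 12 genes and none of these counts.

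With the replicate number as a block in place of batch, over arrays whose labels are numbered 1 or 2, the replicate block gave 976 genes changed by cetuximab, 0 against gefitinib and 17 against afatinib, and 28 of 91 called genes of the named set lost their call. Deviations of same-numbered arrays correlated at 0.649 to 0.721 between inhibitors but at 0.012 to 0.057 between PBS and each inhibitor. Arrays numbered 1 and 2 lie in batches J and E for each inhibitor, while both such PBS arrays lie in batch J. These correlations therefore cannot tell pairing from batch, and whether the numbers pair the samples was not tested.

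Of the same 91 genes, 87 kept their call with only HaCaT-Mock arrays, 82 with only the groups compared, 74 with no batch term, 56 in batch J, 81 in J and E, 90 after quantile normalization and 78 to 87 without 1 array. With the probe set rule of the study 85 kept it, and DCN reversed to -0.13 (adjusted p = 0.71). Within batch J or batch E none of the 91 turned direction, while COL1A2 (J), EGFR and CD3E (E), which had not passed, did. The cause of these shifts was not tested. The batch J fit uses 3 of the 6 arrays.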
